A study of Mus musculus with 6 samples.

Results

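The enzymes described here make bile acids from cholesterol and join them to amino acids in the liver. They were chosen as a named set of 10 genes, Cyp7a1, Cyp8b1, Cyp27a1, Cyp7b1, Hsd3b7, Akr1d1, Acox2, Amacr, Slc27a5 and Baat, and were read from all 16 probe sets that the array annotation pairs with 1 of these symbols alone, out of 45037 probe sets and 18193 named genes on the array. A probe set is a group of short oligonucleotides that reads 1 transcript or several similar ones, and its value is a log2 signal, so that a difference of 1 is a doubling. Probe sets whose log2 signal exceeded 4 in 3 or more of the 6 arrays were tested. This kept 12 of the 16 probe sets and 9 of the 10 genes, and the gene left out was Cyp7a1.

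The study measured whole liver RNA from C57BL/6 mice collected 18 hours after partial hepatectomy, an operation that takes out most of the liver and starts regeneration of the remnant. Values of a group are given below in the order of its arrays A, B and C. Cre minus mice (3 arrays, A, B and C) were Socs3 fl/fl and Alb-Cre-, so their Socs3 gene was floxed but intact. Cre plus mice (3 arrays, A, B and C) were Socs3 fl/fl and Alb-Cre+, in which Cre recombinase under the albumin promoter removes Socs3, a feedback inhibitor of JAK and STAT3 signalling, in hepatocytes and not by design in the other cells of the liver. The ages of these mice are not given in the sources used here. The groups share the floxed alleles and the surgery. No array from before surgery, and none from mice with Cre but no floxed Socs3, was analysed here, so a difference present before surgery, a changed response to it and an effect of Cre cannot be told apart. The labels do not say that each array is a separate mouse, and the p-values measure the spread between these arrays, part of which may be technical.

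Bile acids are made by a classic and an alternative route. The classic route starts with Cyp7a1, the rate-limiting cholesterol 7-alpha-hydroxylase, and Cyp8b1, the sterol 12-alpha-hydroxylase, sends its products towards cholic acid. The alternative route starts with the mitochondrial sterol hydroxylase Cyp27a1 and goes on through the oxysterol 7-alpha-hydroxylase Cyp7b1. Both routes then use Hsd3b7 and Akr1d1 to modify the sterol ring and Amacr and Acox2 to shorten the side chain in peroxisomes. Slc27a5 activates bile acids with coenzyme A, and Baat conjugates them to taurine or glycine.

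The values of the targeted gene and of the tissue's markers matched the labels. On its brightest probe set Socs3 had Cre minus log2 values of 9.09, 9.30 and 9.24 and Cre plus values of 7.44, 6.69 and 7.47, with no overlap. All 8 hepatocyte markers listed were measured, Alb at 15.31 in Cre minus among them, while all 7 lymphocyte markers that had a probe set lay under the filter. Of 8 bile duct markers 6 had a probe set, and 2 of them passed the filter, Sox9 at 5.82 and Onecut2 at 8.89 in Cre minus, both with overlapping groups, while Krt19 and Krt7 missed it. Over the 8554 tested genes, arrays correlated at 0.987 to 0.995 within groups and at 0.982 to 0.993 between them.

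No enzyme passed the test over all genes, and Cyp8b1 had by far the largest difference among them. With limma and Benjamini-Hochberg adjustment over 8554 genes, 0 of the 9 tested enzymes had an adjusted p under 0.05, against 0.0234% of all genes (2 genes). The deleted gene Socs3 did not pass this test either (adjusted p = 0.0732 by limma), so a gene that does not pass may still differ. At an unadjusted p under 0.05 limma listed 3 of the 9 as lower in Cre plus, Cyp8b1, Hsd3b7 and Amacr, and 0 as higher, against 8.21% lower and 6.62% higher among all genes. The same 3 enzymes were lower in every Cre plus array than in any Cre minus array, a separation found downward in 11.9% and upward in 9.21% of all genes. Of the 9, 8 had lower and 1 had higher mean values, where 53.5% of all genes were lower, and the median log2 fold change was -0.18 against -0.01 for all genes. The count of 3 became 1, Cyp8b1, without Cre minus A, when 4.52% of all genes were listed as lower. It became 4, with Akr1d1 added, when arrays were weighted, where 8.53% of all genes were listed as lower. Because RNA came from whole liver, fewer hepatocytes and less of a transcript in each hepatocyte cannot be told apart.

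**Figure D1:**
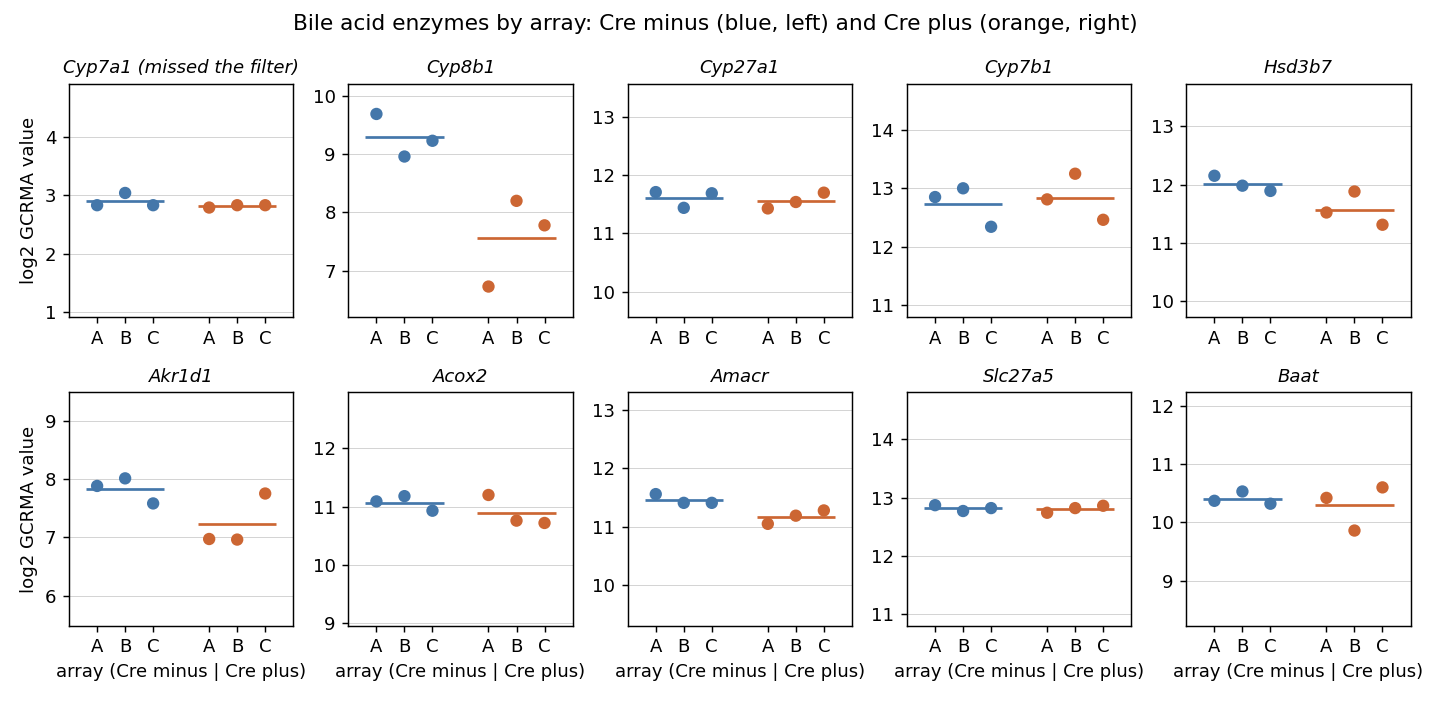
Each panel shows the log2 GCRMA value (y axis, a span of 4 in every panel) of the brightest probe set of 1 enzyme in the 3 Cre minus arrays (blue, left) and the 3 Cre plus arrays (orange, right), with horizontal lines at the group means. Cyp8b1 is lower in all 3 Cre plus arrays, Hsd3b7 and Amacr are lower by less, and Cyp7a1 lies near the bottom of the scale in every array.

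On the classic route, Cyp7a1 could not be read. Its brighter probe set had values of 2.83, 3.04 and 2.83 in Cre minus, against 2.79, 2.83 and 2.83 in Cre plus, and the other had 2.64, 2.58 and 2.56 against 2.53, 2.57 and 2.56. These are close to the medians of whole arrays, 2.98 to 3.02, where values carry little signal over background. Neither probe set reached the filter in any array, so no level and no fold change of Cyp7a1 is read from them. The brighter one entered pairs that are counted in an adjustment below, and these pairs are not read. Whether the rate-limiting enzyme differed between the groups was not detectable with these arrays.

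Cyp8b1 was read by 1 probe set. Its log2 values were 9.69, 8.96 and 9.23 in Cre minus, against 6.73, 8.20 and 7.78 in Cre plus. Every Cre plus value lay below every Cre minus value, with the lowest in Cre plus A and the narrowest gap between Cre plus B at 8.20 and Cre minus B at 8.96. The mean was 9.29 ± 0.37 in Cre minus and 7.57 ± 0.76 in Cre plus (log2, SD, n = 3). The log2 fold change of -1.72 ± 0.40 (SE) puts the Cre plus signal at 30.3% of the Cre minus signal (95% interval 15.2% to 60.3%). Limma gave an unadjusted p = 0.0055 and an adjusted p = 0.186, so the call did not pass, and over 15 alternative settings the adjusted p lay between 0.0934 and 0.47. The difference was the second lowest log2 fold change of all 8554 genes tested, after Socs3 itself at -2.01. Without Cre plus A it was -1.30, and without Cre plus B it was -2.04.

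The sequence before the start of Cyp8b1 is shown because this gene had the largest difference, and that of Hsd3b7 because it is the only other enzyme among the 3 with separated groups for which the promoter table held a sequence. Both are the 250 bases before the annotated start, from RefSeq on GRCm38.p6, Cyp8b1 at chr9:121916306-121916555 on the minus strand and Hsd3b7 at chr7:127800359-127800608 on the plus strand, and capitals mark the motifs that were found. The search covered both strands for CAAGGNCA, the core of sites bound by LRH-1 (Nr5a2), TTCNNNGAA, the core of STAT sites, TTNNGCAA, a C/EBP core, and the TATA box TATAAA.
Cyp8b1: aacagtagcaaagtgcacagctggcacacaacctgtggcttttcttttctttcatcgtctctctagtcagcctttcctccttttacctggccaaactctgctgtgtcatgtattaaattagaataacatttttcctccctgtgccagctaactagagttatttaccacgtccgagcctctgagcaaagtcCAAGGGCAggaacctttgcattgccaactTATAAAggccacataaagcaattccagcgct
Hsd3b7: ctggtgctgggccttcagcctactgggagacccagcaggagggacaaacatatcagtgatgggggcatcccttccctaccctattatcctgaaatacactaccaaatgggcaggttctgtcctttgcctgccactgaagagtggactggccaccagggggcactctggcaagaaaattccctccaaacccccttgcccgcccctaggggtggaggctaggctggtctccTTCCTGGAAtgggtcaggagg
The Cyp8b1 window held CAAGGGCA at 60 to 53 bases before the start and TATAAA at 31 to 26 bases before it. The Hsd3b7 window held TTCCTGGAA at 21 to 13 bases before the start. Among all 32851 promoter windows of this length in the table, the LRH-1 core occurred in 5.53%, the STAT core in 7.02%, the C/EBP core in 9.56% and the TATA box in 12.4%. A match of letters describes the sequence and does not show that a factor was bound. Of the 10 enzymes 5 had a window in the table, and no motif occurred in more than 2 of their 6 windows.

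On the alternative route, neither enzyme showed a difference beyond its spread. Cyp27a1 had log2 values of 11.71, 11.44 and 11.69 in Cre minus, against 11.43, 11.54 and 11.70 in Cre plus. These ranges lie almost on top of each other, and the log2 fold change was -0.05 ± 0.11 (SE) with a 95% interval of -0.32 to 0.21. Cyp7b1 had 12.85, 13.00 and 12.34 in Cre minus and 12.81, 13.25 and 12.46 in Cre plus on its brightest probe set, and 12.14, 12.26 and 11.51 against 12.02, 12.55 and 11.80 on the next. Array C was the lowest and array B the highest of each group on both. The log2 fold changes were 0.11 ± 0.25 and 0.15 ± 0.27, and the interval of the former, -0.51 to 0.73, allows a difference in either direction. The third Cyp7b1 probe set and the second of Cyp27a1 lay between 2.53 and 2.74 in every array and missed the filter.

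Any comparison of the routes here rests on Cyp8b1 alone, since Cyp7a1, which starts the classic route, could not be read. Within each array the log2 value of Cyp7b1 was subtracted from that of Cyp8b1, and the result was centred on the Cre minus mean. It was 0.28, -0.61 and 0.33 in Cre minus, against -2.64, -1.61 and -1.24 in Cre plus. The groups did not overlap, and Cyp8b1 was lower relative to Cyp7b1 by a mean difference of -1.83 (log2; SD 0.53 in Cre minus and 0.72 in Cre plus, n = 3 each). With Cyp27a1 in place of Cyp7b1 the values were 0.30, -0.16 and -0.14 against -2.38, -1.02 and -1.61, a mean difference of -1.67, again with no overlap. The exact two-sided permutation test gave p = 0.1 for each, the smallest that 3 arrays against 3 can give, and an adjusted p = 0.2 over 4 pairs. The adjustment counts 2 pairs with Cyp7a1, which are not read here because that gene had no readable signal.

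**Figure D2:**
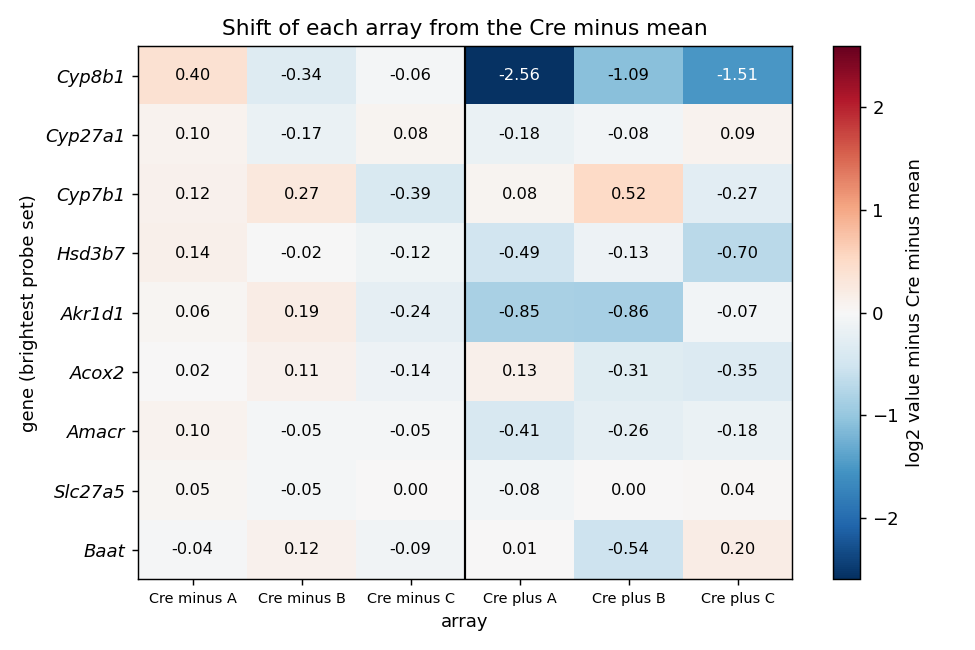
Each cell gives the log2 value of 1 enzyme (rows, brightest probe set) in 1 array (columns) less the Cre minus mean of that enzyme, with blue below and red above it. Cyp8b1 ranges from -1.09 to -2.56 in Cre plus, while Cyp27a1 ranges from -0.18 to 0.09 and Cyp7b1 from -0.27 to 0.52.

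Of the enzymes that modify the sterol ring, both had lower means in Cre plus. Hsd3b7, the 3-beta-hydroxysteroid dehydrogenase of bile acid synthesis, had log2 values of 12.15, 11.98 and 11.89 in Cre minus, against 11.52, 11.88 and 11.31 in Cre plus. The groups were separate by a small margin, since Cre plus B at 11.88 lay just under Cre minus C at 11.89. The log2 fold change was -0.44 ± 0.16 (SE; unadjusted p = 0.0317, adjusted p = 0.291 by limma). Akr1d1, the 5-beta-reductase, had 7.88, 8.01 and 7.58 against 6.97, 6.96 and 7.75 on its brighter probe set, and 5.12, 4.67 and 5.22 against 3.69, 3.92 and 4.77 on the dimmer one. Cre plus A and B were lower than every Cre minus array on both probe sets, while Cre plus C lay within the Cre minus range. The log2 fold change on the brighter one was -0.59 ± 0.25 (unadjusted p = 0.0532, adjusted p = 0.344), and without Cre plus C it was -0.86. On the dimmer probe set it was -0.88 ± 0.31 (unadjusted p = 0.0314, adjusted p = 0.336 over 15563 probe sets), with most of its Cre plus values near the bottom of the scale.

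The enzymes of side chain shortening differed little. Amacr, the racemase that turns the side chain into the form that can be oxidised, had log2 values of 11.56, 11.41 and 11.41 in Cre minus, against 11.05, 11.19 and 11.28 in Cre plus. The groups did not overlap, although the shift was small, with a log2 fold change of -0.29 ± 0.08 and a Cre plus signal at 82.1% of Cre minus (95% interval 71.1% to 94.8%; unadjusted p = 0.0155, adjusted p = 0.239). Acox2, the peroxisomal oxidase of branched side chains, had 11.09, 11.18 and 10.93 against 11.20, 10.76 and 10.72. Its Cre plus A value was the highest of all 6 arrays and the other Cre plus values were the lowest, and the log2 fold change was -0.18 ± 0.15 (95% interval -0.54 to 0.19).

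The conjugating enzymes showed no difference beyond their spread. Slc27a5, the bile acid CoA ligase, had 12.87, 12.77 and 12.82 in Cre minus and 12.74, 12.82 and 12.86 in Cre plus. It was the most even of the enzymes, and its 95% interval of -0.16 to 0.14 on the log2 scale was the narrowest among the 9. Baat, the amino acid N-acyltransferase, had 10.37, 10.53 and 10.32 against 10.42, 9.86 and 10.60 on its brighter probe set and 8.80, 8.98 and 8.82 against 8.95, 8.52 and 9.12 on the other. Cre plus B was the lowest and Cre plus C the highest array on both. The log2 fold change of the brighter one was -0.11 ± 0.20 (95% interval -0.59 to 0.37), and without Cre plus B it was 0.11.

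**Figure D3:**
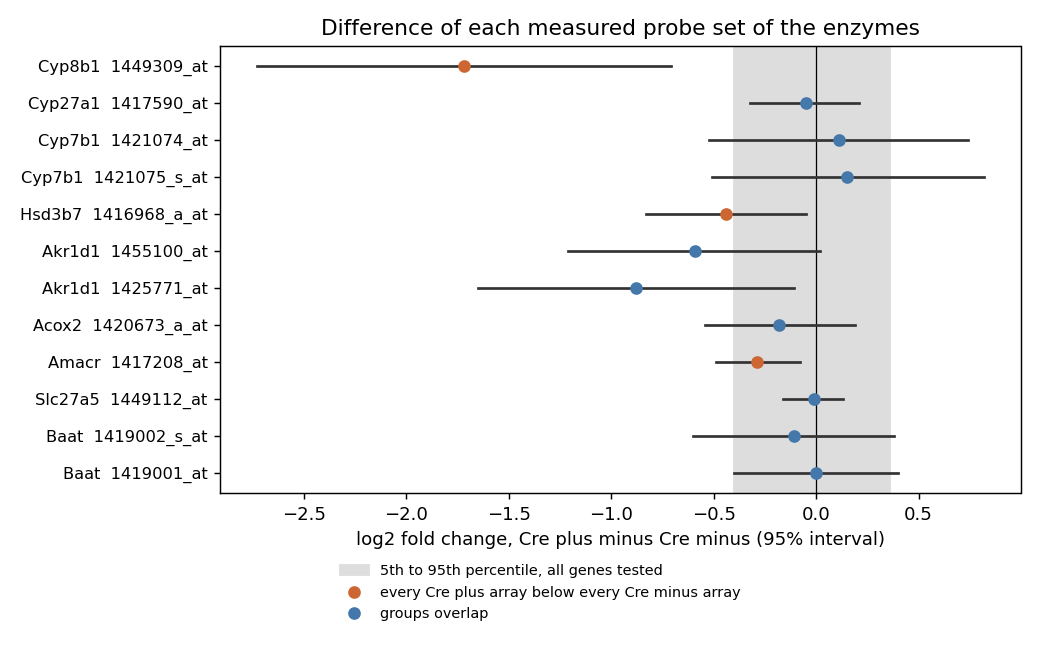
Points give the log2 fold change, Cre plus minus Cre minus, of each of the 12 tested probe sets of the enzymes (y axis) in the fit over all probe sets, with lines for the 95% interval and a grey band from the 5th to the 95th percentile of all genes tested (-0.40 to 0.36). Cyp8b1 lies far below the band, the Akr1d1 probe sets at -0.59 and -0.88 also lie below it, Hsd3b7 at -0.44 lies just below it, and the other probe sets lie within it.

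The Cre plus arrays did not order the enzymes alike. On the brightest probe sets Cre plus A was the lowest of all 6 arrays for Cyp8b1, Amacr, Cyp27a1 and Slc27a5, Cre plus B for Akr1d1 and Baat, and Cre plus C for Hsd3b7 and Acox2. For Cyp7b1 the lowest was Cre minus C. The SD was larger in Cre plus than in Cre minus for 8 of the 9 enzymes (88.9%), against 63.1% of all genes, with Cyp27a1 the exception. On the level of probe sets, limma listed 4 of 12 as lower at an unadjusted p under 0.05, among them the dimmer one of Akr1d1, against 7.18% of all probe sets, and 0 of 12 passed with adjustment, as did 0.0129% of all probe sets.

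Other genes of bile acid synthesis and of related lipid steps were counted from a list of 18, of which 13 were tested. None passed over all genes by limma, where 0.0234% did. At an unadjusted p under 0.05 4 were lower and 0 higher (30.8% lower against 8.21% of all genes), and the median log2 fold change was -0.23. These 4 were Acot12, an acetyl-CoA thioesterase, at -0.58 ± 0.15 (SE), the cytochrome P450 Cyp2a12 at -0.34 ± 0.09, the acyl-CoA synthetase Slc27a2 at -0.29 ± 0.09 and the peroxisomal thioesterase Acot8 at -0.28 ± 0.09. In each of them every Cre plus array was below every Cre minus array. This held for 7 of the 13 tested (53.8%), against 11.9% of all genes. Cyp2c70, which makes the muricholic acids of mice and was picked after its values were seen, had 12.63, 12.79 and 13.01 in Cre minus and 12.78, 13.00 and 13.16 in Cre plus, so it overlapped and its mean was higher by 0.17 ± 0.14.

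The regulators of these enzymes, a list of 24 with 19 tested, held 5 lower and 0 higher genes at an unadjusted p under 0.05 (26.3% lower, against 8.21% lower and 6.62% higher of all genes) and 0 past adjustment, against 0.0234% of all genes. Their median log2 fold change was -0.05. The nuclear receptor Nr1i3 (CAR) had the smallest p, with 9.69, 9.36 and 9.52 in Cre minus against 8.84, 8.88 and 8.57 in Cre plus, which is a log2 fold change of -0.76 ± 0.12 (adjusted p = 0.0995). Klb, the co-receptor through which the gut hormone FGF15 acts on hepatocytes, had 7.14, 7.16 and 7.33 against 6.15, 6.79 and 6.08, or a log2 fold change of -0.87 ± 0.20 (adjusted p = 0.171). Both were lower in each Cre plus array than in any Cre minus array, a separation found downward in 11.9% of all genes. Nr1i2 (PXR) followed at -0.40 ± 0.11, and Insig2, which retains the SREBP escort in the endoplasmic reticulum, at -0.50 ± 0.15.

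Among regulators of Cyp7a1 and Cyp8b1, Nr1h4, Nr0b2 and Nr5a2, named here after their values were seen, showed no difference beyond their spread. Nr1h4 (FXR), the bile acid receptor, had 8.93, 8.80 and 8.67 against 8.67, 8.82 and 8.53. Its target Nr0b2 (SHP), a repressor of bile acid synthesis, had 8.20, 8.36 and 8.14 against 8.91, 7.97 and 8.17, with the highest value in Cre plus A and the lowest in Cre plus B. Nr5a2 (LRH-1), the activator whose core motif stands before Cyp8b1, had 9.04, 9.08 and 9.03 against 8.93, 9.25 and 8.95. The log2 fold changes of these genes were -0.12 ± 0.10, 0.12 ± 0.25 and -0.01 ± 0.10. This does not hold for every listed regulator. Of the 19 tested, 7 were lower and 2 higher in every Cre plus array than in any Cre minus array. The lower ones were 36.8%, against 11.9% of all genes, where 9.21% were separated upward. Klb, given above, was among the lower ones. So were Nr1h3 at -0.22 ± 0.09, Foxa2 at -0.27 ± 0.12 and Ppara at -0.21 ± 0.09. Prox1, at 0.23 ± 0.09, was among those higher. Nr1h3, Foxa2, Ppara, Prox1, Fgfr4 and Hnf4a were also picked after their values were seen. Fgfr4 was at -0.17 ± 0.15 with overlapping groups. Hnf4a was at 0.11 ± 0.06, with every Cre plus array above every Cre minus array.

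Target genes of FXR, a list of 11 with 8 tested, held 2 lower and 0 higher genes at an unadjusted p under 0.05 (25% lower, against 8.21% lower and 6.62% higher of all genes), 0 past adjustment and a median of -0.06. Those lower were the canalicular exporters Abcb4, for phospholipid, at -0.71 ± 0.12, and Abcb11, for bile salts, at -0.81 ± 0.25. Abcb11 had 9.76, 9.34 and 10.10 in Cre minus and 8.54, 9.15 and 9.08 in Cre plus. The next by p were Sdc1, a heparan sulfate proteoglycan, at 0.29 ± 0.12 and Apoc2, the cofactor of lipoprotein lipase, at -0.26 ± 0.12, and neither passed.

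**Figure D4:**
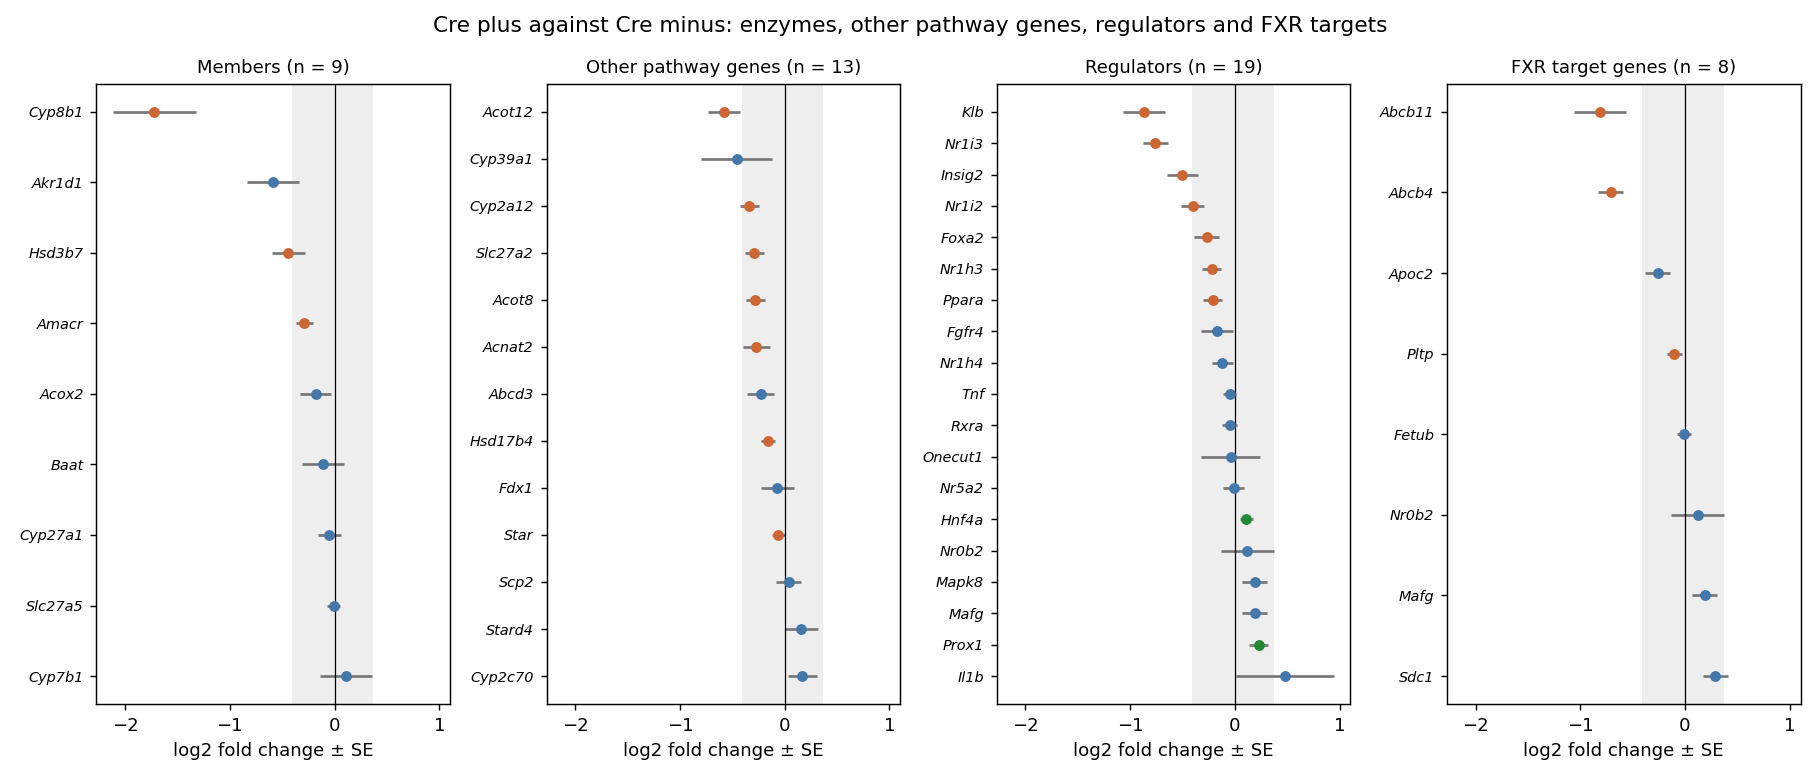
Points give the log2 fold change, Cre plus minus Cre minus, with its SE for the 9 tested enzymes, 13 other pathway genes, 19 regulators and 8 FXR target genes (panels), over a band from the 5th to the 95th percentile of all genes. Orange marks genes lower and green genes higher in every Cre plus array than in any Cre minus array, and blue marks overlap; Cyp8b1 has the lowest value of all genes shown.

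Among all genes tested, those whose values followed Cyp8b1 most closely over the 6 arrays were Klkb1, plasma prekallikrein, Ppp1r3c, a subunit that targets a phosphatase to glycogen, and Dpys, the dihydropyrimidinase. Likeness was the root mean square difference of log2 values after each gene was centred on its mean, and it was 0.391, 0.429 and 0.455 in that order. Klkb1 had 9.53, 8.93 and 9.23 in Cre minus, against 7.76, 8.45 and 8.10 in Cre plus. Its arrays fell in the same order within each group as those of Cyp8b1, as did those of Ppp1r3c and Dpys. These genes were picked for likeness on the same arrays, so that order is not a separate result. For Cyp7b1 the closest were Yipf2 (0.0857), Cep120 (0.107) and Zfp386 (0.117). With 6 arrays and 8554 genes such likeness is a description.

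Markers of other cell types moved beside these results. All 11 tested of 12 Kupffer cell and macrophage markers had lower values in Cre plus, 7 of them at an unadjusted p under 0.05 (63.6%, against 8.21% lower of all genes). Of all genes, 53.5% had lower values with no test applied. Their median log2 fold change was -0.39, against -0.01 for all genes, with a summed linear signal of 4282 to 4682 in Cre minus and 3151 to 3876 in Cre plus. The 8 hepatocyte markers had a median of -0.10, with 7 lower and 1 higher, and sums of 177251 to 183431 and 163065 to 180709. Cps1 had the largest difference, at -0.50 ± 0.18 with overlapping groups, and was the only one with an unadjusted p under 0.05 (12.5%). Tat was the higher one, at 0.39 ± 0.21. Of the endothelial markers 8 of 9 tested were lower (median -0.24, sums 2807 to 3216 and 2256 to 2776). At an unadjusted p under 0.05, 3 of the 9 were lower (33.3%). Lyve1 was the higher one, at 0.91 ± 0.56 with overlapping groups. The median of the 9 tested stellate cell and fibroblast markers was 0.06, with 5 higher and 4 lower. Among them Rgs5 was higher in every Cre plus array than in any Cre minus array, at 0.50 ± 0.11. Such a separation was found upward in 9.21% of all genes. The sum of 5 neutrophil markers was 593 to 622 in Cre minus and 512 to 1710 in Cre plus, and its highest value came from Cre plus A. Only 2 of the 5 passed the filter, S100a8 and S100a9, which were at 10.10 and 9.21 in Cre plus A. Mpo, Elane and Csf3r missed it and showed no rise in that array, at 2.47, 2.35 and 3.03. The cytokine Il1b, which was picked after its values were seen, was at 6.00 in Cre plus A against 4.30 to 4.42 in the other arrays. The part of these cells in the lower Cyp8b1 was not tested, and without Cre plus A the log2 fold change of Cyp8b1 was -1.30.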

How the data were processed

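Of whole liver total RNA, 2 ug was hybridised to each of the Affymetrix mouse genome arrays, per the labels' protocols. The deposited log2 values were made by the authors with GCRMA, per the submitters' processing notes, which name no version. This method estimates background from the probes' sequences, equalises the distributions of the arrays and gives 1 value per probe set, so values near the bottom are compressed. Precision is limited by the number of arrays.

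Of 45101 probe sets, 64 controls were left out. Symbols came from the platform annotation, checked through Entrez IDs against RefSeq genes of GRCm38.p6 (34754 of 34958 single-symbol probe sets matched, 0 symbols changed). Of several kept probe sets, the brightest on average stands for its gene. The groups were compared in limma 3.58.1 (R 4.3.3), lmFit and eBayes, two-sided, with Benjamini-Hochberg adjustment over 8554 genes or 15563 probe sets. Fits were tested on simulated data. A log2 fold change is the Cre plus mean less the Cre minus mean, given with limma's SE and 95% interval. The members and lists were chosen with earlier results of these data known. Named genes are the 10 enzymes, up to 4 genes with the smallest p from each of the 3 pathway lists, and 3 genes most like Cyp8b1 and Cyp7b1; marker genes named, Slc51a and others so marked in the text were picked after their values were seen. Alternatives were 2 normalizations, 2 filters, another prior, 2 ways to read a gene, a replicate block, array weights and each array left out.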

Additional observations from a re-analysis of the deposited data

How the results depend on the processing

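Over 15 alternatives, the log2 fold changes of Cyp8b1, Hsd3b7, Akr1d1, Amacr and Acox2 kept their sign, and 0 of the enzymes passed adjustment in any of them. Leaving out each array in turn gave -0.26 to 0.11 for Baat, -0.14 to 0.01 for Cyp27a1, -0.10 to 0.30 for Cyp7b1 and -0.04 to 0.02 for Slc27a5, so their signs depended on single arrays: Baat and Cyp7b1 turned without Cre plus B (0.11 and -0.10), Cyp7b1 without Cre minus C (-0.09), Cyp27a1 without Cre plus A (0.01) and Slc27a5 without Cre minus A (0.01) or Cre plus A (0.02). The count of enzymes lower at an unadjusted p under 0.05 was 1 to 3 with an array left out, that of probe sets 1 to 4, and the lowest of each came without Cre minus A. The enzymes in the count changed too: Acox2 without Cre plus A, and Akr1d1 without Cre plus C, stood in place of Hsd3b7. The count was 4, with Akr1d1 added, after a shift to a common median, with a filter at 6, with the mean of kept probe sets or with array weights. Genes past adjustment over the whole array, 2 as reported, were 0 with no filter, 56 with a stricter filter at 6 and 0 to 13 with an array left out (0 without Cre minus A, B or C, 1 when Cre plus A and 13 when Cre plus B was left out). The labels do not say whether the letters A, B and C pair the arrays. Deviations from the group means correlated at -0.152, -0.102 and 0.0188 for the same letters, and 0 of 6 arrays correlated best with their own. With so few arrays this cannot exclude a pairing that acts on some genes. With the letters as a block the Cyp8b1 difference from Cyp7b1 was again -1.83 (exact sign-flip p = 0.25, the smallest it can give), 2 enzymes had lower values at an unadjusted p under 0.05, and 0 genes passed. Low signal limits Cyp7a1 and the dimmer Akr1d1 probe set.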

Other observations

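Slc51b, the beta subunit of the basolateral bile acid exporter and an FXR target, missed the filter but was high in a single array. It had 3.80, 3.80 and 3.87 (log2) in the Cre minus arrays and 3.78, 3.36 and 7.18 in Cre plus arrays A to C, and was picked after its values were seen. In Cre plus C its partner subunit Slc51a was at 2.82, near the bottom of the scale, and the enzyme Akr1d1 was at 7.75, within the Cre minus range.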
